A study of Mus musculus with 6 samples.

Results

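The vascular endothelial growth factor (VEGF) family was examined in RNA from isolated brain microvessels of the TEKCRIF1 strain. It was taken as 10 genes chosen by symbol out of the 23183 gene symbols measured: the 5 ligands Vegfa, Vegfb, Vegfc, Vegfd and Pgf, the 3 receptors Flt1, Kdr and Flt4, and the 2 co-receptors Nrp1 and Nrp2. All 10 were found, Vegfd under its older symbol Figf. Cerebral microvessels came from 3 WT mice (TEK-cre with an intact Crif1 gene) and 3 TEKCRIF1 KO mice (TEK-cre with both Crif1 alleles floxed), labelled C57BL/6, with 1 library per mouse and no treatment. The labels give the genotypes as wild type and knockout, and the alleles are from the methods of the study. The Cre recombinase is therefore shared by both groups, and it is driven by Tek, which is active in endothelial cells and, as background, in some blood cells. The age and sex of these mice are not given in the sources used here. Expression is given as FPKM, that is, mapped fragments scaled to transcript length and to library size. The genotypes were set side by side to ask whether VEGF signaling genes differ when the mitochondrial protein CRIF1 is lost from the endothelium.

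VEGF-A, secreted in the brain mainly by astrocytes, pericytes and choroid plexus epithelium, binds KDR (VEGFR2), the main signaling receptor of blood endothelium, and FLT1 (VEGFR1), which binds VEGF-A tightly but signals weakly and in its soluble form acts as a decoy. Among the receptor kinases, VEGF-B and PlGF bind FLT1, while VEGF-C and VEGF-D act on FLT4 (VEGFR3), known from lymphatic and sprouting endothelium, and VEGF-C also acts on KDR. Neuropilins (NRP1 and NRP2) have no kinase of their own, hold VEGF beside its receptor and also bind class 3 semaphorins.

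Gadd45gip1, the gene encoding CRIF1, had 18.8, 15.3 and 16.5 FPKM (WT 1 to WT 3) against 10.8, 7.54 and 10.4 FPKM (KO 1 to KO 3), so every KO library lay below every WT library. Depth, estimated from the spacing of the lowest values, was between 6600000 and 12100000 fragments per library, with the lowest estimates in KO 2 and KO 1. No gene passed an adjusted limma p of 0.05 between the groups (0 of 14247 genes tested, 0% of them), with 838 at an unadjusted p under 0.05 (451 without WT 2, 528 without KO 1 and 1865 without KO 2). The defining endothelial marker Pecam1 was present at 55.8 to 90.9 FPKM, and the summed level of 15 brain endothelial markers overlapped between the groups, at 1279 to 1750 FPKM across WT mice against 1109 to 1539 FPKM in KO mice. The summed level of 6 choroid plexus epithelium markers (among them Ttr) was 8980 FPKM in KO 1 and 10842 FPKM in KO 3, but 3034 FPKM in KO 2 and 2970 to 3421 FPKM in WT mice. KO 1 and KO 3 therefore stand apart from the other 4 libraries in this respect, and values with KO 2 as the only KO library are given for the members and pathway genes whose value this moves by over 1.5 times.

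Upstream sequences are shown for 4 family members. These are Kdr, Nrp1 and Flt1, with the highest levels on the receptor side, and Vegfa, with the smallest unadjusted limma p of the family. The sequences place these genes in the genome and let their composition be compared. Each is the stretch of 250 bases before the first RefSeq start site in the table (GRCm38.p6, the build that mm10 names), read 5′ to 3′ on the strand of the gene. The Vegfa window lies at chr17:46032378-46032627 on the minus strand, and capitals mark the GC box GGGCGG, also searched as CCGCCC.
Vegfa: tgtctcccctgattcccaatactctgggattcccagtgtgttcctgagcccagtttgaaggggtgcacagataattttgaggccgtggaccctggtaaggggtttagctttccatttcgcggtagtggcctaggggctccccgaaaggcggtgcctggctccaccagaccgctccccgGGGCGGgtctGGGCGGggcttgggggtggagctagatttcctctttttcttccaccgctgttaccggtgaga
In the next windows capitals mark GGAA or its reverse TTCC, the core that ETS factors bind, in Flt1 at chr5:147726012-147726261 (minus strand), Kdr at chr5:75978456-75978705 (minus strand, its last 3 bases in the first exon of GENCODE M21) and Nrp1 at chr8:128358823-128359072 (plus strand). In GENCODE M21 the Nrp1 gene begins earlier, at 128358604. Its window therefore lies inside the annotated gene, with 0 bases in exons.
Flt1: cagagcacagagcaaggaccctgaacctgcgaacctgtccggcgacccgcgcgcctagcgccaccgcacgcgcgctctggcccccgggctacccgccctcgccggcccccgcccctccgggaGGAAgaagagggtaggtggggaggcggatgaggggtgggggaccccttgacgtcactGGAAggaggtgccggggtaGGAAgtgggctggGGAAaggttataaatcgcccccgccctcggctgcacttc
Kdr: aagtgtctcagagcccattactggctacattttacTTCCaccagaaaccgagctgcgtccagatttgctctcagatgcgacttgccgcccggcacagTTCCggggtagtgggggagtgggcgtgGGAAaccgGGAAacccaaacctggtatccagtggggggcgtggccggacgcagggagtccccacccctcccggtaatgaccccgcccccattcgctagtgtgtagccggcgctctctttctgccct
Nrp1: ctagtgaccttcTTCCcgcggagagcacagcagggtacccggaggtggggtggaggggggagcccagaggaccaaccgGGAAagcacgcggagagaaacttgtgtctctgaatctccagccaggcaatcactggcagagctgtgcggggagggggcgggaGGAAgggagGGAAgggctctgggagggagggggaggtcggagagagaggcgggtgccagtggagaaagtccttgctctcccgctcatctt
Vegfa held 2 GC boxes, which began 72 and 62 bases before the start site, and 32.7% of all 32851 promoter windows of this length held at least 1. GC boxes were also found in the other windows, 3 in Flt1, 2 in Kdr and 1 in Nrp1, where they are not capitalized. Flt1, Kdr and Nrp1 each held 4 GGAA cores and Vegfa held 6, a motif found in 93.4% of windows with a median of 3 per window. The core of the hypoxia element, ACGTG or CACGT, was found 0 times in these 4 windows and in 16.6% of all windows. Sequence farther upstream than 250 bases was not searched, so elements there would not be seen. RefSeq has a second start site for Vegfa, and its window, of which 218 of 250 bases lie in exons and which is not printed, held 1 such core. These are matches of letters only. In GENCODE M21, Vegfa has 7 exons in its longest coding transcript on chromosome 17, Flt1 and Kdr each have 30 on chromosome 5, Flt4 has 30 on chromosome 11, and Nrp1 has 17 on chromosome 8.

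On the FPKM scale, which is per length, Kdr, Nrp1 and Flt1 had the highest mean levels of the family. In WT mice the order of the means was Kdr with 67.0 ± 11.6 FPKM, Nrp1 with 65.0 ± 2.93, Flt1 with 35.3 ± 3.94, Vegfb with 34.9 ± 10.5, Vegfa with 20.4 ± 3.45, Nrp2 with 19.3 ± 4.29, Vegfc with 12.2 ± 2.76, Flt4 with 7.07 ± 0.769, Pgf with 7.03 ± 3.11 and Vegfd with 2.79 ± 2.05 FPKM (SD, n = 3). The WT ranges of Kdr and Nrp1 overlapped, as did those of Flt1 and Vegfb, of Vegfa and Nrp2, of Flt4 and Pgf, and of Pgf and Vegfd, so these neighbours were not separated. In KO mice the first place was taken by Nrp1, with 82.6 ± 4.33 FPKM against 52.8 ± 6.19 FPKM for Kdr (SD, n = 3), and their ranges did not meet. Kdr made up 56.4% to 64.6% of the summed FPKM of the 3 receptors in every library, Flt1 29.0% to 37.2% and Flt4 4.86% to 7.41%. FPKM is a gene-level value here, so the soluble and membrane forms of Flt1 were not separated.

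**Figure D1:**
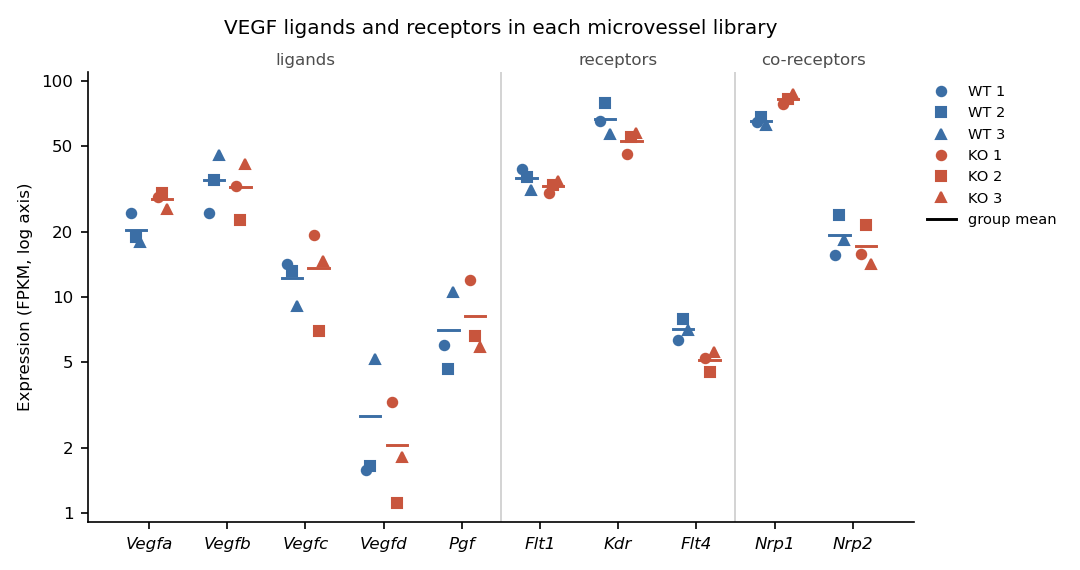
Expression of the 10 VEGF genes in FPKM on a log axis, with 1 point per library (WT blue, KO red, shape by replicate number) and a bar at the mean of each group of 3. All KO points of Vegfa and Nrp1 lie above the WT points and all KO points of Flt4 lie below them, while the groups overlap for the other 7 genes.

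Of the 10 members, 4 had a higher and 6 a lower mean log2 value in KO mice, and 0 passed an adjusted limma p of 0.05. Vegfa was the 1 member with an unadjusted p under 0.05, where 2.77% of all genes tested had one with a higher level in KO mice and 5.88% had one in either direction. The groups did not overlap for 3 members, with Vegfa and Nrp1 higher and Flt4 lower in KO mice. Over all genes tested, every KO library lay above every WT library for 5.37% and below for 5.7%, together 11.1%. With so few members, these counts do not set the family apart from other genes. The median log2 fold change of the members was −0.11, beside −0.006 over all genes.

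Among the ligands, Vegfa, the principal angiogenic factor, had 24.4, 19.0 and 17.9 FPKM (WT 1 to WT 3) against 28.9, 30.3 and 25.6 FPKM (KO 1 to KO 3). The lowest KO library lay just above the highest WT library. The log2 fold change of log2(FPKM + 1) was 0.46 (standard error 0.20, 95% interval 0.01 to 0.91), with a limma p of 0.0458, an adjusted p of 0.841 and an exact two-sided permutation p of 0.1, the smallest that 3 mice against 3 allow. The unadjusted p was above 0.05 when WT 2 (0.133), WT 3 (0.153), KO 1 (0.102) or KO 2 (0.0752) was left out, and the log2 fold change was then between 0.37 and 0.44. Choroid plexus epithelium also expresses Vegfa. With KO 2, the 1 KO library whose choroid plexus markers lay in the WT range, as the only KO library, the log2 fold change of Vegfa was 0.56, a value that rests on a single mouse. The part of choroid plexus RNA in the values of the other KO libraries was not tested.

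Vegfb, a ligand of FLT1, had 24.5, 34.6 and 45.5 FPKM across WT mice against 32.8, 22.7 and 41.1 FPKM across KO mice. The groups lay within each other's range, with a log2 fold change of −0.11 (95% interval −0.73 to 0.52, exact permutation p = 0.7). With KO 2 as the only KO library it was −0.55. Pgf, which encodes the other FLT1 ligand PlGF, had 5.95, 4.61 and 10.5 FPKM across WT mice against 11.96, 6.55 and 5.88 FPKM across KO mice, and 1 library of each group stood above the rest. Its log2 fold change was 0.19 (95% interval −0.56 to 0.94, exact permutation p = 0.6), and −0.021 with KO 2 alone.

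Vegfc, a ligand of FLT4, had 14.3, 13.2 and 9.03 FPKM across WT mice against 19.3, 6.96 and 14.7 FPKM across KO mice. KO mice held both the highest and the lowest value, and the log2 fold change was 0.08 (95% interval −0.68 to 0.83, exact permutation p = 0.8). It was 0.46 without KO 2, −0.21 without KO 1 and −0.70 with KO 2 alone, so its direction rested on single libraries. Vegfd, the other FLT4 ligand, had 1.58, 1.64 and 5.16 FPKM across WT mice against 3.26, 1.11 and 1.82 FPKM across KO mice. Its highest value was in WT 3, without which the sign of its log2 fold change turned from −0.24 (95% interval −1.20 to 0.71, exact permutation p = 0.7) to 0.17. With KO 2 as the only KO library it was −0.72. Vegfd rested on the fewest fragments, an estimated 15 to 124 per library, where counting alone gives a coefficient of variation of 25.8% at the lower end. For these 4 ligands the intervals ran from 0.68-fold or less up to 1.43-fold or more, so differences within these bounds were not excluded.

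**Figure D2:**
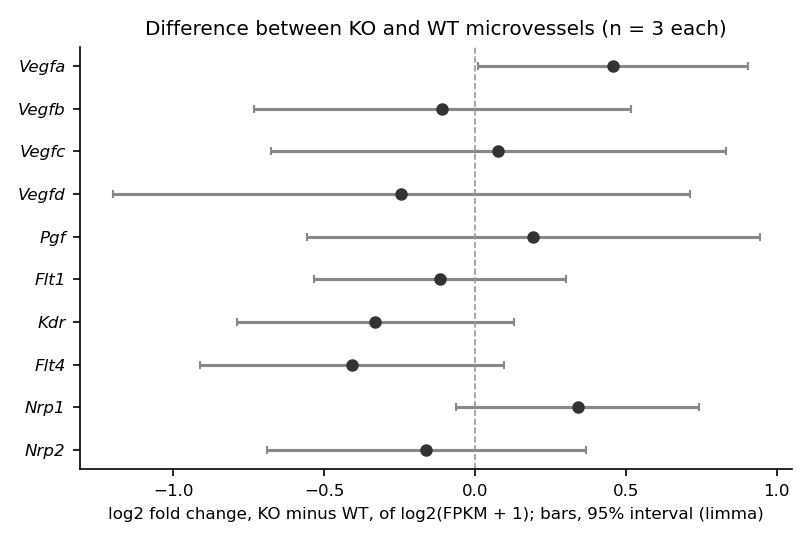
Log2 fold change of log2(FPKM + 1), KO minus WT, for the 10 VEGF genes, with points for the limma estimate and bars for its 95% interval (n = 3 libraries per group). The interval of Vegfa, from 0.01 to 0.91, is the 1 that leaves out 0, before any adjustment.

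Among the receptors, Kdr had 64.9, 79.4 and 56.5 FPKM across WT mice against 45.8, 55.2 and 57.4 FPKM across KO mice. The highest value was in WT 2 and the lowest in KO 1, and the groups overlapped only in that KO 3 lay above WT 3. The log2 fold change was −0.33 (standard error 0.21, 95% interval −0.79 to 0.13, limma p = 0.141, adjusted p = 0.848, exact permutation p = 0.2). Leaving out WT 2 moved it to −0.20. Flt1 had 39.1, 35.7 and 31.2 FPKM across WT mice against 30.2, 32.8 and 34.3 FPKM across KO mice, a log2 fold change of −0.12 (95% interval −0.53 to 0.30, exact permutation p = 0.4). It was the receptor with the smallest difference, and its groups overlapped.

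Flt4 was the receptor for which every KO library lay below every WT library. It had 6.32, 7.86 and 7.03 FPKM across WT mice against 5.22, 4.49 and 5.55 FPKM across KO mice. The log2 fold change was −0.41 (standard error 0.23, 95% interval −0.91 to 0.10), with a limma p of 0.102, an adjusted p of 0.841 and an exact permutation p of 0.1. In bulk RNA, fewer cells of a type and less RNA per cell cannot be told apart. For the microvessel preparation this concerns Flt4 in particular, since lymphatic endothelium also expresses it. Prox1, the defining factor of that lineage, was at 1.23 to 3.49 FPKM in all libraries and its groups overlapped. The summed level of 5 lymphatic markers, 46.2 to 57.9 FPKM across WT mice against 65.4 to 99.97 FPKM in KO mice, was higher in every KO library. Most of that sum was Pdpn, which is not particular to lymphatic cells.

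Of the co-receptors, Nrp1 had 64.7, 68.1 and 62.3 FPKM across WT mice against 78.6, 82.1 and 87.2 FPKM across KO mice. The gap between the groups was wider than the range within either of them. The log2 fold change was 0.34 (standard error 0.18, 95% interval −0.06 to 0.74), with a limma p of 0.0886, an adjusted p of 0.841 and an exact permutation p of 0.1. Across 14163 genes the log2 fold change was lower the higher the GC content of the transcript (Spearman rho −0.347, a description over genes that are not independent), and the longest Nrp1 transcript has a low GC content, 41.9%. After a correction of each library for GC content, Nrp1 differed by 0.18 on the log2 scale. With KO 2 as the only KO library it was 0.33. Nrp2, the co-receptor tied to VEGF-C and to veins and lymphatics, had 15.7, 24.0 and 18.3 FPKM across WT mice against 15.8, 21.5 and 14.2 FPKM across KO mice. The groups overlapped, with a log2 fold change of −0.16 (95% interval −0.69 to 0.37, exact permutation p = 0.6), and 0.17 with KO 2 alone.

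Levels were also set against each other within a library, in 9 ratios. Every ratio without overlap between the groups holds Vegfa or Nrp1, which were themselves higher in every KO library. Such ratios are not independent of the levels given above. The ratio of Nrp1 to Kdr in FPKM was 0.996, 0.858 and 1.10 in WT mice and 1.72, 1.49 and 1.52 in KO mice. Every KO library thus had more Nrp1 than Kdr, where WT libraries had about equal levels. On log2(FPKM + 1) the ratio differed by 0.67 between the groups (exact two-sided permutation p = 0.1, adjusted over the 9 ratios, 0.18). After the GC correction this difference was 0.52. The ratio of Vegfa to Kdr was 0.375, 0.239 and 0.317 in WT mice and 0.632, 0.548 and 0.446 in KO mice, a log2 difference of 0.79 (exact permutation p = 0.1, adjusted 0.18). Ligand relative to receptor was therefore higher in every KO library, by more than the SD of either group (0.32 in WT and 0.25 in KO mice). Vegfa to Flt1 differed by 0.57 in the same direction without overlap (exact permutation p = 0.1, adjusted 0.18). The ratio of Flt1, soluble and membrane forms together, to Kdr was 0.602, 0.450 and 0.552 in WT mice and 0.660, 0.594 and 0.598 in KO mice. Its groups overlapped (exact permutation p = 0.3), and its log2 difference of 0.21 was 0.095 without WT 2.

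Relative to the mean log2 level of 15 endothelial markers, Kdr differed by −0.16 (exact permutation p = 0.5), Flt1 by 0.06 (exact permutation p = 0.7) and Flt4 by −0.24 (exact permutation p = 0.3) in KO relative to WT mice, with overlapping groups for each. The direction turned for Kdr without KO 1 (0.006, and −0.034 without WT 2) and for Flt1 without KO 2 (−0.038) or with Cdh5 left out of the markers (−0.007). For Flt4 the overlap came from WT 1 alone, whose ratio of −3.33 lay among the KO values of −3.34, −3.22 and −3.16, below −2.87 in WT 2 and −2.81 in WT 3. The Flt4 difference was −0.40 without WT 1, −0.14 without WT 3, −0.12 after the GC correction and −0.30 with Cdh5 left out of the markers. The 15 markers, of which Cdh5 is 1, themselves differed by −0.17 (exact permutation p = 0.4). Nrp1 relative to the same markers was higher in every KO library, by 0.51 (exact permutation p = 0.1, adjusted 0.18). Vegfa relative to 10 astrocyte markers was also higher in every KO library, by 0.78 (exact permutation p = 0.1, adjusted 0.18). The astrocyte markers had a summed level of 818 to 998 FPKM across WT mice against 608 to 688 FPKM in KO mice, lower in every KO library, so this ratio holds both a higher Vegfa and lower markers, and the part of astrocyte RNA was not tested. The summed level of 10 markers of pericytes, another source of Vegfa, overlapped. It was 883 to 1400 FPKM across WT mice against 923 to 1048 FPKM in KO mice. Of these markers, 8 were lower and 2 higher in KO mice, with 1 at an unadjusted limma p under 0.05. Their defining gene Pdgfrb had 45.5, 45.6 and 36.9 FPKM across WT mice against 32.3, 30.8 and 33.6 FPKM across KO mice. It was lower in every KO library, and the part of pericyte RNA was not tested.

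**Figure D3:**
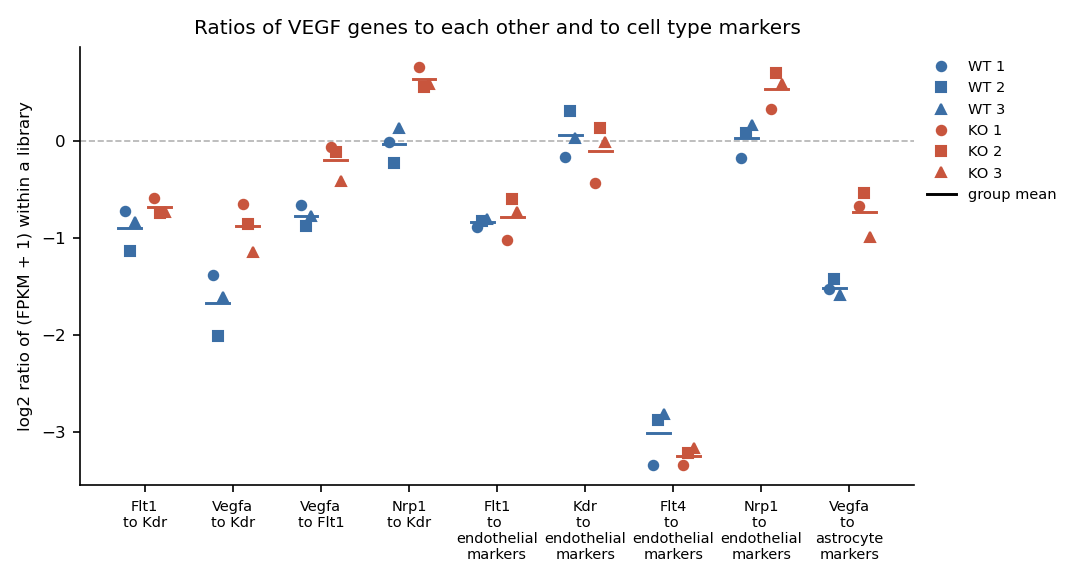
Log2 ratios of (FPKM + 1) within each library, between VEGF genes and against the mean log2 level of cell type markers, with 1 point per library (WT blue, KO red) and a bar at each group mean. KO points lie above all WT points for Vegfa to Kdr, Vegfa to Flt1, Nrp1 to Kdr, Nrp1 to endothelial markers and Vegfa to astrocyte markers, and the groups overlap for the other 4 ratios.

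The genes around the receptors were followed in 7 lists, and 0 genes on them passed an adjusted limma p of 0.05. Before adjustment, 9 of the 139 genes tested on these lists had a p under 0.05, a share of 6.47% beside 5.88% over all genes, so the lists as a whole lay near the background. The number ran from 2 without WT 2 (5 without KO 1) to 24 without KO 2. Under the 16 processing alternatives the unadjusted p stayed under 0.05 in 16 for Cdh5, 15 for Klf2, 14 for Klf4, 13 for Fn1, 12 of 15 for Egr3 (not tested at a mean of 5 FPKM), 12 for Egr1, 11 for Ephb4, 9 for Esrra and 8 for Sema3d. Of 15 genes of oxygen sensing and VEGF transcription, 6 were higher and 9 lower in KO mice (median log2 fold change −0.07), and 1 had an unadjusted p under 0.05. That gene was Esrra, a nuclear receptor that drives Vegfa together with PGC-1alpha, with 16.6, 7.94 and 13.3 FPKM across WT mice against 21.3, 21.7 and 15.3 FPKM across KO mice (log2 fold change 0.63, limma p = 0.0471, exact permutation p = 0.2). WT 1 and KO 3 overlapped, and without WT 2 the log2 fold change of Esrra was 0.35 with an unadjusted p above 0.05. Hif1a, the oxygen-regulated activator of Vegfa, had 18.7, 20.5 and 16.6 FPKM across WT mice against 25.2, 21.4 and 31.1 FPKM across KO mice, without overlap (log2 fold change 0.45, limma p = 0.0581, exact permutation p = 0.1). Its higher values were in KO 3 and KO 1, the libraries with high choroid plexus markers, and with KO 2 as the only KO library the log2 fold change was 0.20. It was 0.28 after the GC correction. Ppargc1a, which encodes PGC-1alpha, was 2.69, 2.22 and 4.17 FPKM across WT mice against 5.51, 4.48 and 4.43 FPKM in KO mice (log2 fold change 0.55, limma p = 0.0775, exact permutation p = 0.1).

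The 14 tested regulators of endothelial identity had a median log2 fold change of −0.21, with 4 higher and 10 lower in KO mice and 2 at an unadjusted p under 0.05, both lower. Klf2, a flow-responsive factor that restrains Kdr, had 58.2, 48.5 and 40.5 FPKM across WT mice against 30.8, 31.0 and 29.8 FPKM across KO mice (log2 fold change −0.65, limma p = 0.00822, exact permutation p = 0.1). Its relative Klf4 had 24.7 ± 2.65 FPKM across WT mice against 15.7 ± 3.25 FPKM across KO mice (SD for n = 3 per group, limma p = 0.0138, exact permutation p = 0.1). Ets1, one of the factors that bind GGAA cores, had 31.5 ± 3.04 and 23.3 ± 3.42 FPKM (SD for n = 3 per group, limma p = 0.0578, exact permutation p = 0.1). All 3 were lower in every KO library, as was 1 more gene of this list, the ETS factor Etv6 (log2 fold change −0.46), named after its values were seen. Over all genes tested, 5.7% were lower in every KO library.

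Of 23 tested receptor partners and trafficking genes, 6 were higher and 17 lower (median −0.12), and 2 had an unadjusted p under 0.05. Cdh5, which encodes VE-cadherin, the junction protein that holds KDR at cell contacts, had 86.7, 92.4 and 91.3 FPKM across WT mice against 50.8, 42.5 and 38.1 FPKM across KO mice. This was the largest difference on the 7 lists, −1.03 on the log2 scale with a standard error of 0.19 (limma p = 3.03e-04, adjusted p = 0.841, exact permutation p = 0.1). Ephb4, a venous receptor whose ligand ephrin-B2 takes part in VEGF receptor uptake, had 31.8 ± 2.42 FPKM across WT mice against 21.8 ± 4.82 FPKM across KO mice (SD for n = 3 per group, log2 fold change −0.54, limma p = 0.0317, exact permutation p = 0.1). Ptpn1, a phosphatase acting on KDR, differed by −0.34 on the log2 scale (limma p = 0.139, exact permutation p = 0.2).

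The class 3 semaphorins, which share the neuropilins with VEGF, were split, with 4 of 7 higher and 3 lower in KO mice (median 0.14). Sema3d had 7.34 ± 1.26 FPKM across WT mice against 4.47 ± 1.38 FPKM across KO mice (SD for n = 3 per group, limma p = 0.0403, exact permutation p = 0.1), and Sema3a, a ligand of NRP1, had 5.80 ± 0.768 and 3.70 ± 0.950 FPKM (SD for n = 3 per group, limma p = 0.0608, exact permutation p = 0.1). Sema3f, a ligand of NRP2, had 5.74, 7.68 and 6.89 FPKM across WT mice against 8.20, 7.75 and 12.6 FPKM across KO mice (limma p = 0.126, exact permutation p = 0.1). KO 2 lay just above WT 2 and KO 3 stood highest, and with KO 2 as the only KO library the log2 fold change of Sema3f was 0.18 in place of 0.41. The groups did not overlap for these 3 of the 7 genes, Sema3a and Sema3d being lower and Sema3f higher in KO mice, where 11.1% of all genes tested had groups that did not overlap. With KO 2 alone the log2 fold changes of Sema3d and Sema3a were −0.25 and −0.23, in place of −0.63 and −0.55.

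Of 42 tested genes that relay the signal of KDR, 16 were higher and 26 lower (median −0.12), and 0 had an unadjusted limma p under 0.05. The smallest p-values were those of the kinase Src (log2 fold change −0.52, limma p = 0.0747, exact permutation p = 0.2), of Sphk1, a lipid kinase (−0.55, limma p = 0.0767, exact permutation p = 0.3), and of Plcg1, the phospholipase that docks to KDR (−0.42, limma p = 0.0987, exact permutation p = 0.3). Among 23 tested genes that VEGF induces in endothelium, 8 were higher and 15 lower (median −0.07), with 2 at an unadjusted p under 0.05. These were the early response factors Egr1, with 20.3 ± 6.85 FPKM across WT mice against 11.9 ± 2.08 FPKM across KO mice (SD for n = 3 per group, limma p = 0.0338, exact permutation p = 0.3), and Egr3, with 3.9 ± 0.892 and 1.84 ± 0.917 FPKM (SD for n = 3 per group, limma p = 0.0371, exact permutation p = 0.1). Neurons also express Egr1 and Egr3. Of 10 neuron markers, 8 were lower in KO mice, 2 of them at an unadjusted limma p under 0.05, and their summed level overlapped, with 422 to 798 FPKM across WT mice against 290 to 628 FPKM in KO mice. Their part in the Egr values was not tested. Icam1, a leukocyte adhesion molecule, differed by −0.58 on the log2 scale (limma p = 0.054, exact permutation p = 0.2).

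Of 16 tested matrix proteins and secreted proteins that bind or process VEGF, 3 were higher and 13 lower (median −0.22). Fn1, the matrix protein fibronectin, had 343, 330 and 223 FPKM across WT mice against 139, 172 and 214 FPKM across KO mice (log2 fold change −0.76, limma p = 0.0143, exact permutation p = 0.1). Thbs1, an antiangiogenic matrix protein that binds VEGF, differed by −0.50 on the log2 scale without overlap between the groups (limma p = 0.0892, exact permutation p = 0.1), and by −0.23 without WT 2, its highest library. Adamts1, a protease that binds VEGF-A, had 17.2, 13.1 and 16.96 FPKM across WT mice against 25.3, 12.7 and 41.3 FPKM across KO mice (limma p = 0.138, exact permutation p = 0.4). Its high values were in KO 1 and KO 3, and the log2 fold change of 0.57 turned to −0.28 with KO 2 as the only KO library. The part of choroid plexus RNA in the values of Hif1a, Sema3f and Adamts1 was not tested. Of the other genes named on these lists, with KO 2 alone the log2 fold change moved by over 1.5 times to −0.20 for Ets1, −0.09 for Src, −0.22 for Plcg1, −0.45 for Egr3, −0.29 for Thbs1 and −0.91 for Ephb4, in the same direction each. Leaving out 1 library moved the log2 fold change as far for Egr3 (−0.53 without KO 1), Ephb4 (−0.36 without KO 2), Plcg1 (−0.25 without KO 1), Src (−0.28 without KO 1), Sphk1 (−0.35 without WT 1, −0.88 without WT 3), Sema3f (0.21 without KO 3) and Adamts1 (1.00 without KO 2, 0.19 without KO 3). The GC correction moved Src to −0.35. The fibroblast and meningeal markers, cells that also make fibronectin, had a summed level of 1619 to 2493 FPKM across WT mice against 1122 to 1572 FPKM in KO mice, lower in every KO library. Their part in the values of Fn1 was not tested.

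**Figure D4:**
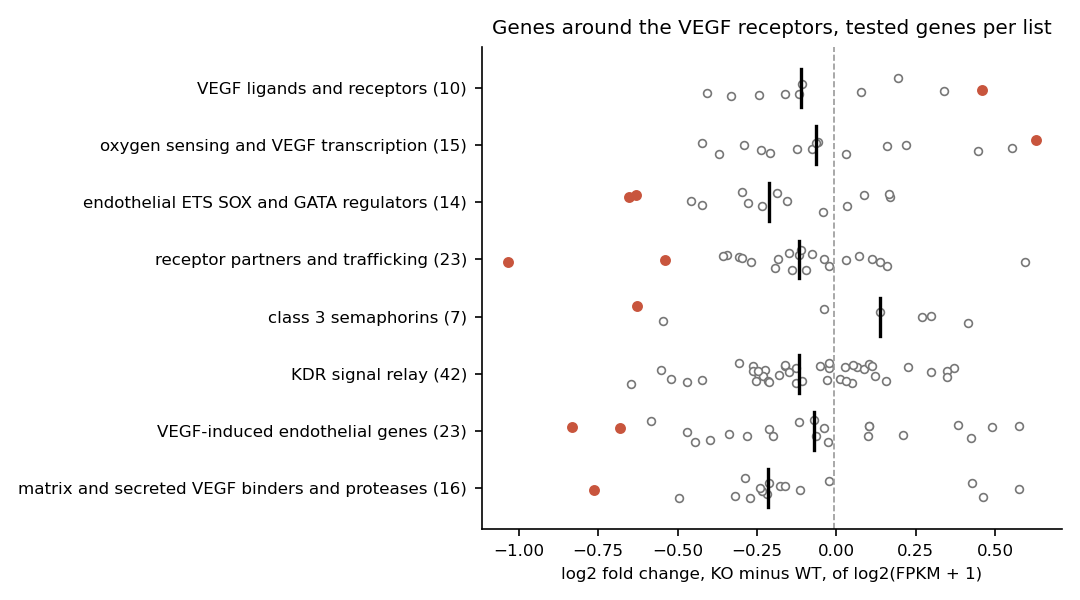
Log2 fold change of log2(FPKM + 1), KO minus WT, for every tested gene of the VEGF family and of 7 lists of genes around its receptors (number tested in brackets), with filled red points for an unadjusted limma p under 0.05, a black bar at each median and a dashed line at the median of all genes, −0.006. The 7 lists lie between medians of −0.22 and 0.14, and the point farthest to the left is Cdh5.

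Over the 6 libraries, the genes whose log2 values were most like those of Vegfa included Phxr4 (Pearson r = 0.982) and Ppip5k1 (0.979), with 121 genes at an r of at least 0.9. For Flt1 they were Mapk4 (0.997), Msln (0.989) and Hip1 (0.986), with 124 genes at that level, and for Kdr they were Stx8 (0.995), Tcp11l2 (0.988) and Farsa (0.985), with 116. These are descriptions over 6 points from both genotypes, picked as the highest among all genes tested, and Phxr4 was at 0 to 3.62 FPKM.

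The direction of Vegfa, Nrp1, Kdr, Flt1 and Flt4 was kept under each of the 16 processing alternatives tried, in ranges of 0.37 to 0.59 for Vegfa, 0.18 to 0.38 for Nrp1, −0.44 to −0.20 for Kdr, −0.20 to −0.04 for Flt1 and −0.48 to −0.28 for Flt4 (log2 fold change, KO minus WT). The adjusted limma p was at least 0.39 for each of these 5 genes throughout. The other 5 members, Vegfb, Vegfc, Vegfd, Pgf and Nrp2, had a sign that turned under at least 1 alternative.

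**Figure D5:**
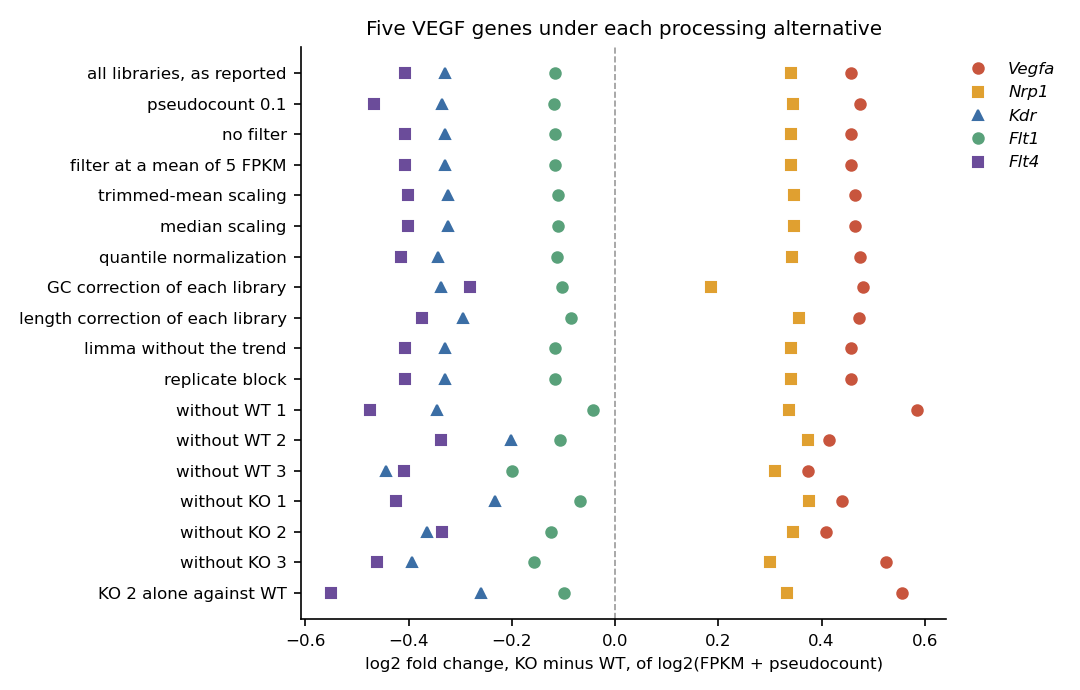
Log2 fold change, KO minus WT, of Vegfa, Nrp1, Kdr, Flt1 and Flt4 (colors and shapes) with all libraries, under each processing alternative, without each library in turn, and with KO 2 as the only KO library. Each gene stays on its side of 0 in every row, and Nrp1 moves most under the GC correction, to 0.18.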

How the data were processed

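Libraries of brain microvessel RNA (3 WT, 3 KO, 1 per mouse) were grouped by the genotype in the sample labels. The authors trimmed reads with FASTX_Trimmer and BBMap, mapped them with TopHat to mm10 (per the submitters' processing notes) and deposited FPKM values, 1 for each of 23183 symbols in every library. The gene annotation used for FPKM is not given in the sources used here. Read counts were not used here.

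FPKM values were compared as log2(FPKM + 1) with limma 3.58.1 (R 4.3.3, trended prior variance, no added scaling) over the 14247 genes averaging 1 FPKM or more, with Benjamini-Hochberg adjustment over all of them. Single values were also tested with exact two-sided permutation tests (scipy 1.17.1). The script was tested on simulated data. The members, lists and tests were chosen with earlier results of these data known. Members, Gadd45gip1, the 3 smallest limma p-values of each list and the 3 most like genes of Vegfa, Flt1 and Kdr are named, beside marker genes, except 1 gene like Vegfa that is not reported here. Depth came from the spacing of values under 0.3 FPKM and annotated lengths, so fragment numbers are estimates and cover counting error only. Sequences are from RefSeq (GRCm38.p6) and exons from GENCODE M21. Replicates are separate samples in the labels. Alternatives were other pseudocounts, filters, scalings, GC and length corrections, a block and leaving out libraries. 2 alternatives, KO 2 alone (members and named genes) and endothelial markers without Cdh5, were added after the data were seen.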

Additional observations from a re-analysis of the deposited data

How the results depend on the processing

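No member passed an adjusted limma p of 0.05 under any of the 16 processing alternatives tried (0 of 10 with each, except that 9 were tested at a mean of 5 FPKM, where Vegfd was left out). At an unadjusted p under 0.05 the number of members was 2 without a filter on low values, 0 with limma without the trend, 0 with the replicate block, and 0 to 1 without each library in turn, against 1 as reported. Over all genes tested, leaving out a library gave 451 (without WT 2) to 1865 (without KO 2) genes at an unadjusted p under 0.05, and 0 to 6 at an adjusted one. For the 7 lists around the receptors the same fits gave 2 (without WT 2) to 24 (without KO 2) genes at an unadjusted p under 0.05, against 9. Without each library in turn the log2 fold change ranged from −0.33 to 0.12 for Vegfb, −0.21 to 0.46 for Vegfc, −0.51 to 0.17 for Vegfd, −0.088 to 0.489 for Pgf and −0.33 to 0.001 for Nrp2. The GC correction turned Vegfb to 0.12 and Vegfc to −0.025. With KO 2 as the only KO library, assumed to vary like the WT libraries, Vegfb was −0.55, Vegfd −0.72, Vegfc −0.70, Pgf −0.021, Nrp2 0.17 and Adamts1 −0.28. The difference of Kdr to endothelial markers ranged from −0.28 to 0.006 and that of Flt1 from −0.038 to 0.171 without each library, and Flt1 was −0.007 when Cdh5 was left out of the markers. The cause of these turns was not tested. Same-numbered libraries deviated from their group means with correlations of 0.037, 0.027 and 0.002. Differently numbered pairs ran from −0.073 to 0.046, so same-numbered pairs did not stand out. A litter or batch shared by libraries cannot be told from these values. The value columns carry other animal numbers than the titles. With the block the limma p of Vegfa was 0.0632. With 3 mice a group no exact test can fall under 0.1.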
